A study of Homo sapiens with 4 samples.

Results

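The genes described here encode glycosyltransferases that build O-linked sugar chains and cap glycans with sialic acid and fucose, in A549 cells with and without overexpressed USP12. They were chosen by gene symbol, as the numbered genes of the GALNT, GCNT, B3GNT, B3GALT, B4GALT, B4GALNT, ST3GAL, ST6GAL, ST6GALNAC, ST8SIA and FUT families plus C1GALT1 and its chaperone gene C1GALT1C1. This gave 80 of the 50868 genes counted, including GCNT6, which is annotated as a processed pseudogene. A549 is an established human lung adenocarcinoma line, and USP12 is a deubiquitinase. There were 2 libraries from control cells, labelled only as control, and 2 from USP12-overexpressed cells. The study's methods describe tagged human USP12 in a pLVX expression vector. The comparison asks which of these genes differ in level when USP12 is overexpressed. The labels do not say whether libraries came from separate cultures, so p-values measure only the spread between libraries, which may be technical.

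Mucin-type O-glycosylation begins in the Golgi, where a GALNT enzyme places N-acetylgalactosamine on serine or threonine and so forms the Tn antigen. C1GALT1 adds galactose to make core 1, GCNT enzymes branch it, and B3GNT6 makes core 3 instead. Other B3GNT and B4GALT enzymes extend the chains, and sialyltransferases and fucosyltransferases end them. ST6GALNAC1 halts a chain early by sialylating Tn, which gives sialyl-Tn, an antigen of many adenocarcinomas.

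Library totals lay between 14280081 and 16305356 counts, at which a floor of 3 counts equals 0.166 to 0.227 CPM (counts scaled by TMM library size), for counting error only. USP12 had 15.2 and 34.4 CPM in control cells against 1745 and 2235 CPM in USP12 cells (log2 fold change 6.32, SE 0.57, edgeR adjusted p = 0.0975). Epithelial keratins and AKR1B10, AKR1C1 and AKR1C2, which are typically high in A549, were abundant in all libraries. CD3E had 0 counts throughout and PTPRC at most 1. Of 4 fibroblast markers DCN had 0 counts throughout, COL1A1 made up most of the rest, and their sum was 16.1 and 2.60 CPM in control cells and 20.0 and 15.9 CPM in USP12 cells. The summed level of 3 endothelial markers was 15.4 and 8.59 CPM in control cells and 0.432 and 1.32 CPM in USP12 cells. The monocyte marker CD14 ranged from 4.71 to 32.1 CPM. The sum of 6 epithelial markers was 12896 CPM in control replicate 1 and 6794 to 7474 CPM elsewhere. Within that sum KRT8, KRT18, KRT19 and EPCAM were lower in both USP12 libraries than in both control libraries, whereas KRT7 and CDH1 overlapped. KRT19 had 437 and 114 CPM in control cells against 68.7 and 55.9 CPM in USP12 cells. The part of these markers in the results was not tested. In bulk RNA, fewer cells expressing a gene and less RNA per cell cannot be told apart. The control libraries stood apart from each other, being over 1 log2 unit apart in 31 of 59 tested members (52.5%, against 43.5% of all genes). The USP12 libraries were that far apart in 4 of 59 (6.78%, against 7.90%). The column heading of control replicate 1 has its own date-like prefix, so fold changes are also given against each control library alone.

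Of the 80 members 59 passed the low-count filter and were tested, 6 had 0 counts in all libraries and the other 15 were too low. No member reached an adjusted p under 0.05 in edgeR's quasi-likelihood test (0 of 59, lowest adjusted p = 0.107), and no gene did among 15222 (0%). At an unadjusted p under 0.05 there were 9 members, beside 7.59% of all genes. An adjusted p under 0.05 was reached by 5 lower members and 1 higher member in edgeR's exact test (1.72% and 1.1% of all genes), by 6 and 0 in the DESeq2 Wald test (1.79% and 0.874%), by 5 and 1 with the replicate number as a block (1.65% and 1.01%), and by 7 and 1 without a low-count filter (1.46% and 0.673%). With the block and without the filter, edgeR took the spread from a trend over genes and not from each gene's own libraries. Their counts are thus not like those of the first test. No member had passed the quasi-likelihood test with the low-count filter, so members were also counted by a looser criterion. It set an unadjusted quasi-likelihood p of at most 0.05 and log2 fold change of at most -1, or at least 1 for higher genes.

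This criterion was met by 8 members lower in USP12 cells (13.6%, against 4.41% of all genes) and by 1 higher member (1.69%, against 2.92%). Members were chosen with earlier results of these data known, so these shares are descriptive only. The lower ones were ST6GALNAC1, B3GNT6, GALNT5, ST3GAL4, B3GNT3, ST6GALNAC4, ST6GALNAC2 and GCNT3, and the higher one was GALNT16. Fewer lower members met the criterion when either USP12 library was left out, and more when either control library was. More higher members met it when either control library was left out, and GALNT16 did not meet it without USP12 replicate 1. Calls over all genes at an adjusted p under 0.05 moved too. A lone library is there assumed to vary like the pair, so these counts are not given. Across the 59 members the median log2 fold change was -0.24, beside -0.06 for all genes. Against control replicate 1 alone it was -0.31, beside 0.09 for all genes. Against control replicate 2 alone it was -0.04, beside 0.02 for all genes.

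Both USP12 libraries lay below both control libraries in 18 members (30.5%, against 17.0% of all genes) and above them in 8 (13.6%, against 19.5%). For 1 gene, 2 libraries against 2 cannot give an exact permutation p under 0.333 (two-sided). A log2 fold change of -1 or less against each control library alone was seen in 6 members (10.2%, against 3.98%), namely ST6GALNAC1, B3GNT6, GALNT5, ST3GAL4, B3GNT3 and ST6GALNAC2. GALNT16 alone was at 1 or more against each (1.69%, against 4.19%).

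**Figure D1:**
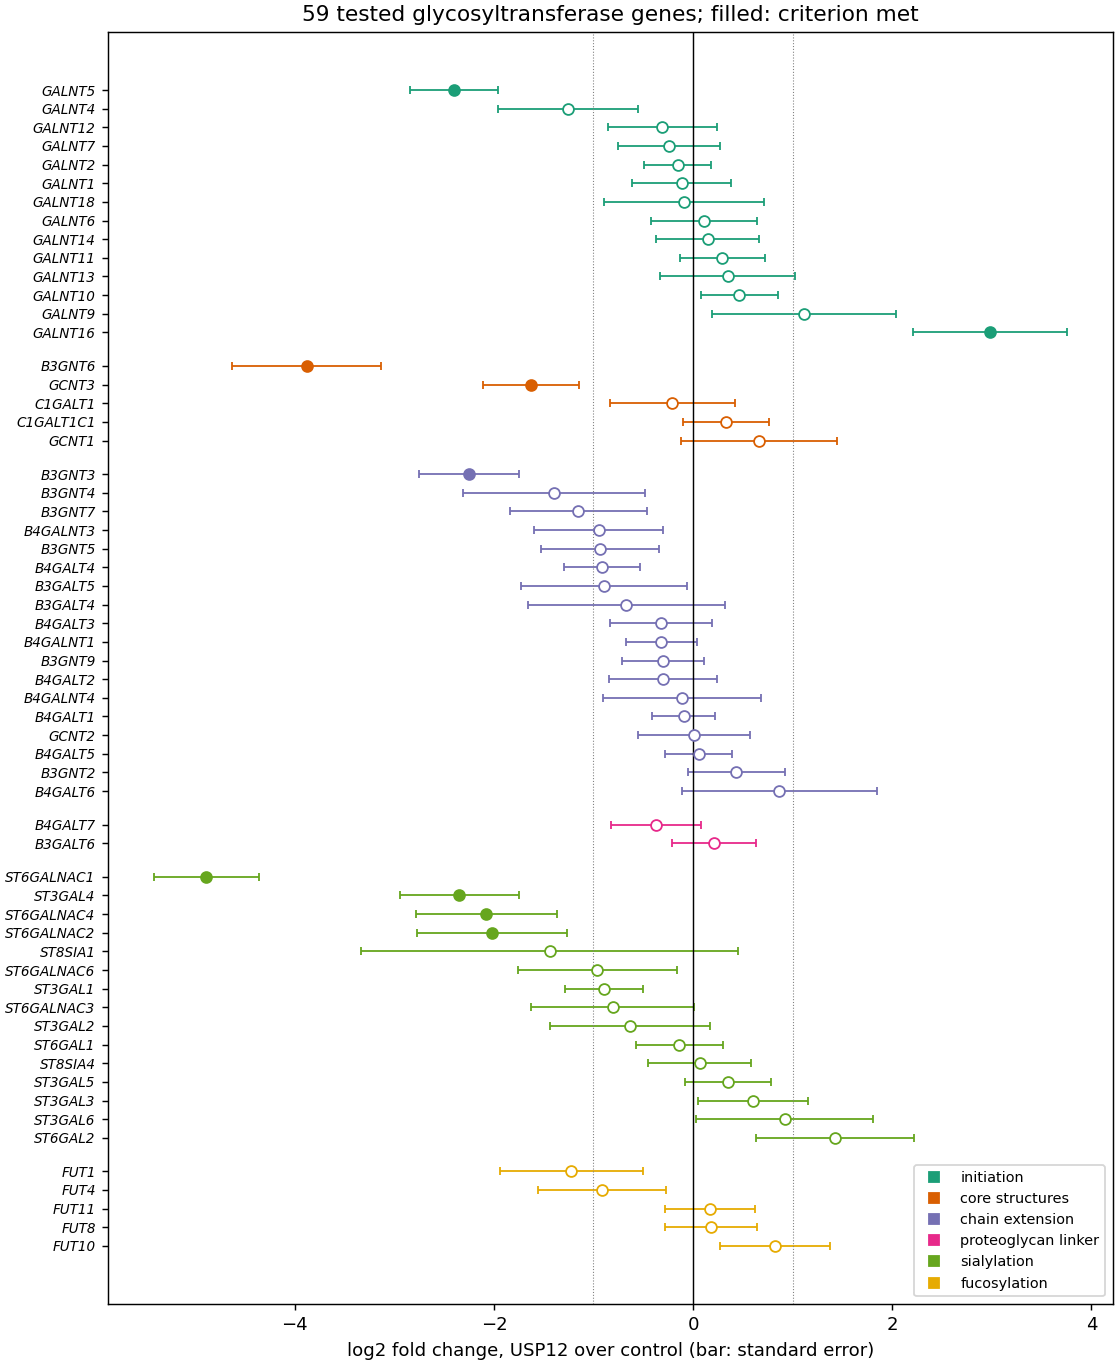
Log2 fold change of USP12 over control for the 59 tested members, coloured by step, with approximate standard errors as bars. Filled points met the criterion, 8 of them lower, 4 being sialyltransferases, and 1 higher, GALNT16.

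The initiating GALNT enzymes numbered 17, of which 14 were tested, with 7 lower and 7 higher point estimates and a median log2 fold change of 0.01. The criterion was met by 1 in each direction. GALNT5, a mucin-type initiating enzyme (ENSG00000136542, GRCh38 chromosome 2, 157257705 to 157318491, plus strand), had 37.4 and 31.0 CPM in control cells against 6.33 and 6.58 CPM in USP12 cells (log2 fold change -2.40, SE 0.44, edgeR adjusted p = 0.210). Its replicates were close and the groups did not overlap. The fold change was -2.50 (log2) against control replicate 1 alone and -2.26 against control replicate 2 alone.

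GALNT16, also an initiating enzyme (ENSG00000100626, chromosome 14, 69259277 to 69357033, plus strand), was higher in USP12 cells from a low start, with 13 and 6 counts in control cells against 77 and 69 in USP12 cells. This corresponds to 0.984 and 0.332 CPM (control) and 5.54 and 4.78 CPM (USP12) (log2 fold change 2.98, SE 0.77, edgeR adjusted p = 0.332). The groups were separate, and the fold change was 2.41 (log2) against control replicate 1 alone and 3.93 against control replicate 2 alone. GALNT3, known for glycosylating FGF23, was too low to be tested and had 12 and 10 counts in control cells against 0 and 0 in USP12 cells. The mean control level of GALNT3 was 3.45 times the floor of 3 counts in each USP12 library. This leaves out the error of the control counts and so is no strict bound. Such a switch off was seen in 1.21% of 24800 genes with a count, and the opposite in 1.26%.

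GALNT2 and GALNT10 had the highest levels per length of their family in all libraries. GALNT2, an enzyme of broad substrate range, lay at 150.4 to 188 CPM with overlapping groups. GALNT10, which prefers peptides that already carry a sugar, had 135 and 193 CPM in control cells against 187 and 265 CPM in USP12 cells (log2 fold change 0.46, 95% interval -0.47 to 1.40). In GALNT4 a single library stood apart, with 32.5 and 145 CPM (control) and 33.5 and 40.8 CPM (USP12). The annotated genes POC1B and POC1B-GALNT4 overlap GALNT4 on the same strand, so these counts may not be of GALNT4 alone. The fold change of GALNT4 was 0.22 (log2) against control replicate 1 alone and -1.97 against control replicate 2 alone.

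The core structure group holds 8 members, of which 5 were tested and 2 met the criterion. Not all of them make a core, as C1GALT1C1 encodes a chaperone and GCNT6 is annotated as a processed pseudogene. B3GNT6, the core 3 synthase (ENSG00000198488, chromosome 11, 77034398 to 77041973, plus strand), had 67 and 81 counts in control cells against 3 and 6 in USP12 cells, or 5.07 and 4.49 CPM (control) and 0.216 and 0.416 CPM (USP12) (log2 fold change -3.88, SE 0.74, edgeR adjusted p = 0.221). Both control values were well above the USP12 values, of which the lower equals the floor. Against single controls it was -3.93 (log2) against control replicate 1 alone and -3.79 against control replicate 2 alone.

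GCNT3, which branches mucin chains to core 2 and core 4 (chromosome 15, 59594875 to 59640239, plus strand), had 266 and 118 CPM in control cells against 58.5 and 65.7 CPM in USP12 cells (log2 fold change -1.63, SE 0.48, edgeR adjusted p = 0.423). The groups were separate, and the fold change was -2.07 (log2) against control replicate 1 alone and -0.93 against control replicate 2 alone. GTF2A2 lies over GCNT3 on the opposite strand and had 63.6 and 53.1 CPM (control) and 42.7 and 41.2 CPM (USP12); the libraries were stranded, but whether the counting used strand is not stated. C1GALT1, the core 1 synthase, had control levels of 6.43 and 16.01 CPM and USP12 levels of 6.84 and 12.6 CPM (log2 fold change -0.21, 95% interval -1.74 to 1.32). Its chaperone gene C1GALT1C1 had 30.6 and 21.3 CPM (control) and 35.9 and 29.3 CPM (USP12) (log2 fold change 0.33, 95% interval -0.72 to 1.38). Groups overlapped in both, and the intervals span a doubling of either gene.

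The other GCNT genes of this group were low. GCNT1 had 8 and 28 counts in control cells against 24 and 25 in USP12 cells (log2 fold change 0.66). GCNT4, untested, had 3 and 1 counts in control cells against 8 and 10 in USP12 cells, a USP12 to control ratio of 4.97 with an exact 95% counting interval of 1.64 to 20.2. This interval pools the libraries of each group and leaves out the spread between them. The pseudogene GCNT6 and the gene GCNT7 had at most 5 and 1 counts.

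**Figure D2:**
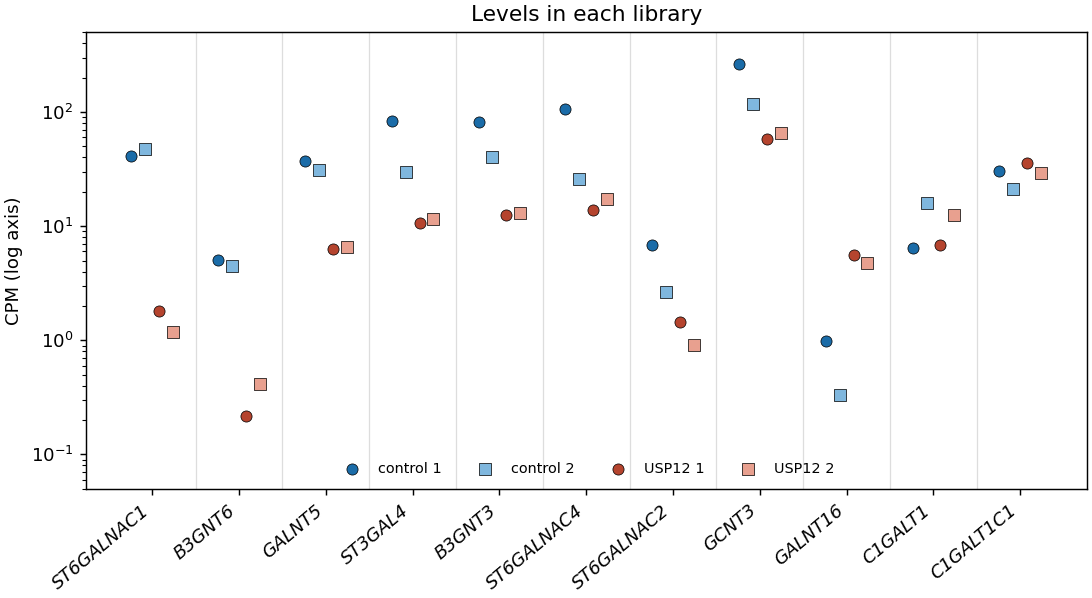
CPM (log axis) of the 9 members that met the criterion, C1GALT1 and C1GALT1C1 in each library (circles replicate 1, squares replicate 2, colour by group). ST6GALNAC1 lies at 41.5 and 47.0 CPM in control cells and at 1.80 and 1.18 CPM in USP12 cells, while the groups of C1GALT1 and of C1GALT1C1 overlap.

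Chain extension and branching involves 22 members, of which 18 were tested, with 14 lower and 4 higher point estimates and a median of -0.32. The criterion was met by 1, B3GNT3, which extends core 1 chains (ENSG00000179913, chromosome 19, 17794828 to 17813576, plus strand). It had 81.9 and 40.1 CPM in control cells against 12.5 and 13.2 CPM in USP12 cells (log2 fold change -2.25, SE 0.50, edgeR adjusted p = 0.293), without overlap of the groups. Against single controls the value was -2.65 (log2) against control replicate 1 alone and -1.65 against control replicate 2 alone. B3GNT2, a polylactosamine synthase, lay the other way with 8.93 and 15.9 CPM (control) and 16.4 and 17.2 CPM (USP12), and did not meet the criterion.

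B4GALT1, the galactosyltransferase of many N- and O-linked chains, had the highest CPM of this step, with 438 and 523 CPM in control cells against 439 and 462 CPM in USP12 cells (log2 fold change -0.09, 95% interval -0.87 to 0.68). B4GALT5, a lactosylceramide synthase, lay at 154 to 188 CPM. Its relative B4GALT6 had 12 and 168 counts in control cells against 121 and 145 in USP12 cells. Here control replicate 1 alone was low, and the fold change was 3.38 (log2) against control replicate 1 alone and 0.01 against control replicate 2 alone. B4GALT4 had 46.1 and 48.0 CPM (control) and 25.8 and 24.0 CPM (USP12), which was separate between the groups but short of the criterion (log2 fold change -0.92). B4GALNT1, the GM2 and GD2 synthase, had control levels of 100.2 and 83.2 CPM and USP12 levels of 68.6 and 78.3 CPM. The proteoglycan linker enzymes B4GALT7 and B3GALT6 had log2 fold changes of -0.38 and 0.21, did not meet the criterion and overlapped between groups.

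Sialyltransferases numbered 20, of which 15 were tested, with 10 lower and 5 higher point estimates and a median of -0.81. The median was -0.77 against control replicate 1 alone and -0.06 against control replicate 2 alone, beside 0.09 and 0.02 for all genes. The criterion was met by 4, all lower. ST6GALNAC1, the sialyl-Tn synthase (ENSG00000070526, chromosome 17, 76624761 to 76643786, minus strand), had 41.5 and 47.0 CPM in control cells against 1.80 and 1.18 CPM in USP12 cells. Its control libraries were close to each other and far above both USP12 libraries. ST6GALNAC1 was 29.6-fold lower in USP12 cells (log2 fold change -4.89, SE 0.53, edgeR adjusted p = 0.107), and -4.77 (log2) against control replicate 1 alone and -4.97 against control replicate 2 alone.

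ST6GALNAC2, which sialylates core 1 chains, lies 37.8 kb from ST6GALNAC1 on the same strand. It had 6.89 and 2.66 CPM (control) and 1.44 and 0.900 CPM (USP12) (log2 fold change -2.02, SE 0.75, edgeR adjusted p = 0.576), and the groups did not overlap. Its value was -2.52 (log2) against control replicate 1 alone and -1.18 against control replicate 2 alone. SNHG16, a noncoding RNA gene, lies over both on the opposite strand with control levels of 90.8 and 47.2 CPM and USP12 levels of 65.1 and 78.9 CPM (log2 fold change 0.06). The annotated gene ENSG00000284526 overlaps ST6GALNAC2 on the same strand, so the counts of ST6GALNAC2 may not be of that gene alone. ST6GALNAC4, which acts on already sialylated core 1 chains (chromosome 9, 127907886 to 127917041, minus strand), had 106 and 25.9 CPM in control cells against 13.96 and 17.2 CPM in USP12 cells (log2 fold change -2.08, SE 0.71, edgeR adjusted p = 0.510). Its value was -2.73 (log2) against control replicate 1 alone and -0.73 against control replicate 2 alone. ST6GALNAC6, a ganglioside enzyme, lies 2.48 kb away and had 58.8 and 10.2 CPM (control) and 16.8 and 18.6 CPM (USP12). In this pair of neighbours control replicate 1 was the highest library by far.

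ST3GAL4, which caps galactose on N- and O-linked chains (chromosome 11, 126355640 to 126440344, plus strand), had 83.2 and 29.8 CPM in control cells against 10.7 and 11.50 CPM in USP12 cells (log2 fold change -2.35, SE 0.60, edgeR adjusted p = 0.330). The groups were separate, and the fold change was -2.88 (log2) against control replicate 1 alone and -1.42 against control replicate 2 alone. KIRREL3, on the opposite strand over ST3GAL4, had 5.45 and 0.610 CPM (control) and 18.4 and 17.1 CPM (USP12). ST3GAL1, which caps core 1, was separate between the groups with control levels of 52.0 and 72.3 CPM and USP12 levels of 34.2 and 32.7 CPM but did not meet the criterion (log2 fold change -0.89). ST3GAL5, the GM3 synthase, had 66.1 and 35.9 CPM (control) and 64.1 and 65.8 CPM (USP12).

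ST6GAL2, which sialylates N-acetyllactosamine ends, had 17.8 and 3.32 CPM in control cells against 25.1 and 31.5 CPM in USP12 cells (log2 fold change 1.43, SE 0.79, edgeR adjusted p = 0.824), the highest fold change of this step. Its value was 0.70 (log2) against control replicate 1 alone and 3.09 against control replicate 2 alone. ST6GAL1, of the same activity, lay at 16.3 to 22.4 CPM with overlapping groups. ST8SIA1, the GD3 synthase, had 41 and 0 counts in control cells against 1 and 15 in USP12 cells, so it varied within the groups as much as between them. ST6GALNAC5, ST8SIA5 and ST8SIA6 had 0 counts in all libraries, which allows at most 3 counts in each, and ST8SIA2 and ST8SIA3 had at most 1.

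Fucosyltransferases numbered 11, of which 5 were tested and 0 met the criterion, with a median of 0.17. FUT1, which makes the H antigen, had 2.19 and 3.60 CPM (control) and 1.58 and 0.900 CPM (USP12) (log2 fold change -1.22, SE 0.71, edgeR adjusted p = 0.839). FUT4, a Lewis x enzyme, had control levels of 2.88 and 5.38 CPM and USP12 levels of 2.52 and 1.87 CPM. In both genes the USP12 libraries lay below the control libraries. FUT8, which adds core fucose to N-glycans, lay at 14.2 to 21.8 CPM. FUT10, also named POFUT3 as a protein O-fucosyltransferase, was placed in this step by its FUT symbol. FUT10 had 3.71 and 7.48 CPM in control cells against 10.1 and 9.84 CPM in USP12 cells and the highest fold change of the step (log2 0.83). FUT3, FUT5 and FUT6 are near-identical neighbours on chromosome 19 whose reads may be split between them, and they had at most 11, 1 and 3 counts. FUT2, FUT7 and FUT9 had 0 counts in all libraries.

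**Figure D3:**
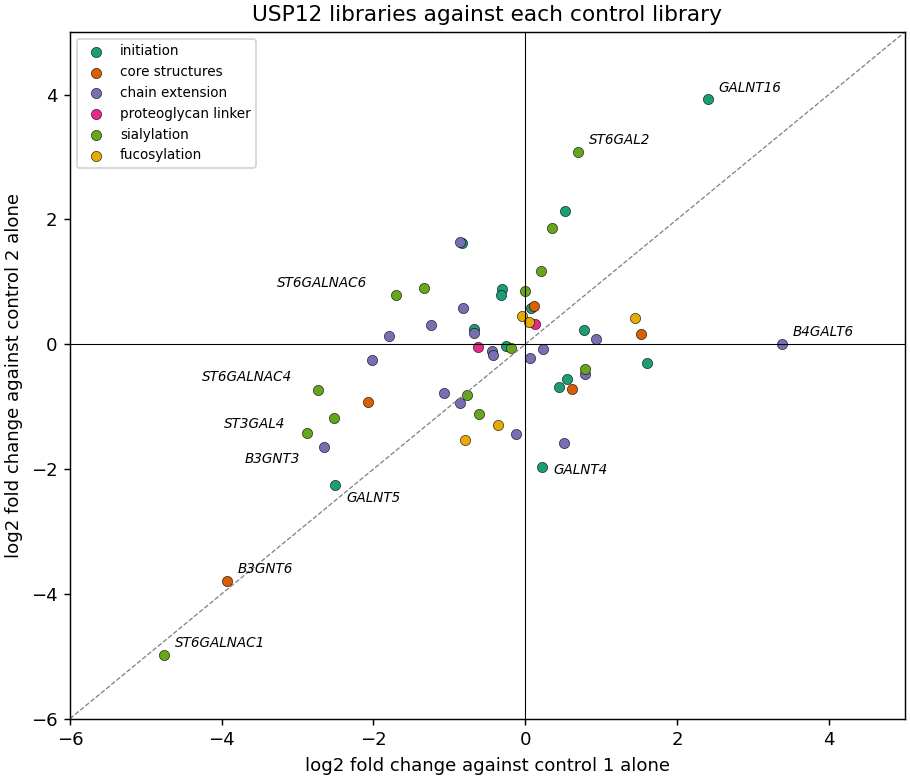
Log2 fold change against control replicate 1 alone (horizontal) and control replicate 2 alone (vertical) for the tested members except ST8SIA1, which had 0 counts in control replicate 2; both axes share the USP12 libraries. ST6GALNAC1, B3GNT6 and GALNT5 lie near the dashed line of equal values, whereas ST6GALNAC4 (-2.73 and -0.73) and B4GALT6 (3.38 and 0.01) lie away from it.

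Levels of different genes were compared per kb of canonical transcript. The GALNT family summed to 134 and 145 CPM per kb in control cells and 132 and 141 CPM per kb in USP12 cells, which overlapped. Within it GALNT5 held 2.69% and 2.07% in control cells and 0.462% and 0.450% in USP12 cells. The ST6GALNAC family summed to 107 and 39.8 CPM per kb in control cells and 16.7 and 18.9 CPM per kb in USP12 cells, lower in both USP12 libraries. ST6GALNAC1 held 15.6% and 47.4% in control cells and 4.32% and 2.51% in USP12 cells. ST6GALNAC4 held 58.0% and 38.1% in control cells and 49.0% and 53.6% in USP12 cells. ST6GALNAC6 held 22.8% and 10.6% in control cells and 41.8% and 40.8% in USP12 cells. The level of ST6GALNAC6 itself overlapped, at 24.4 and 4.23 CPM per kb in control cells and 6.99 and 7.70 in USP12 cells. In the ST3GAL family, ST3GAL4 held 55.5% and 41.7% in control cells and 18.3% and 17.3% in USP12 cells, and ST3GAL5 held 18.3% and 20.8% in control cells and 45.8% and 41.1% in USP12 cells. ST3GAL4 was thus above ST3GAL5 in both control libraries and below it in both USP12 libraries. B3GNT3 held 46.5% and 36.8% in control cells and 17.5% and 19.1% in USP12 cells of the B3GNT family, with B3GNT9 and B3GNT2 above it in the latter.

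**Figure D4:**
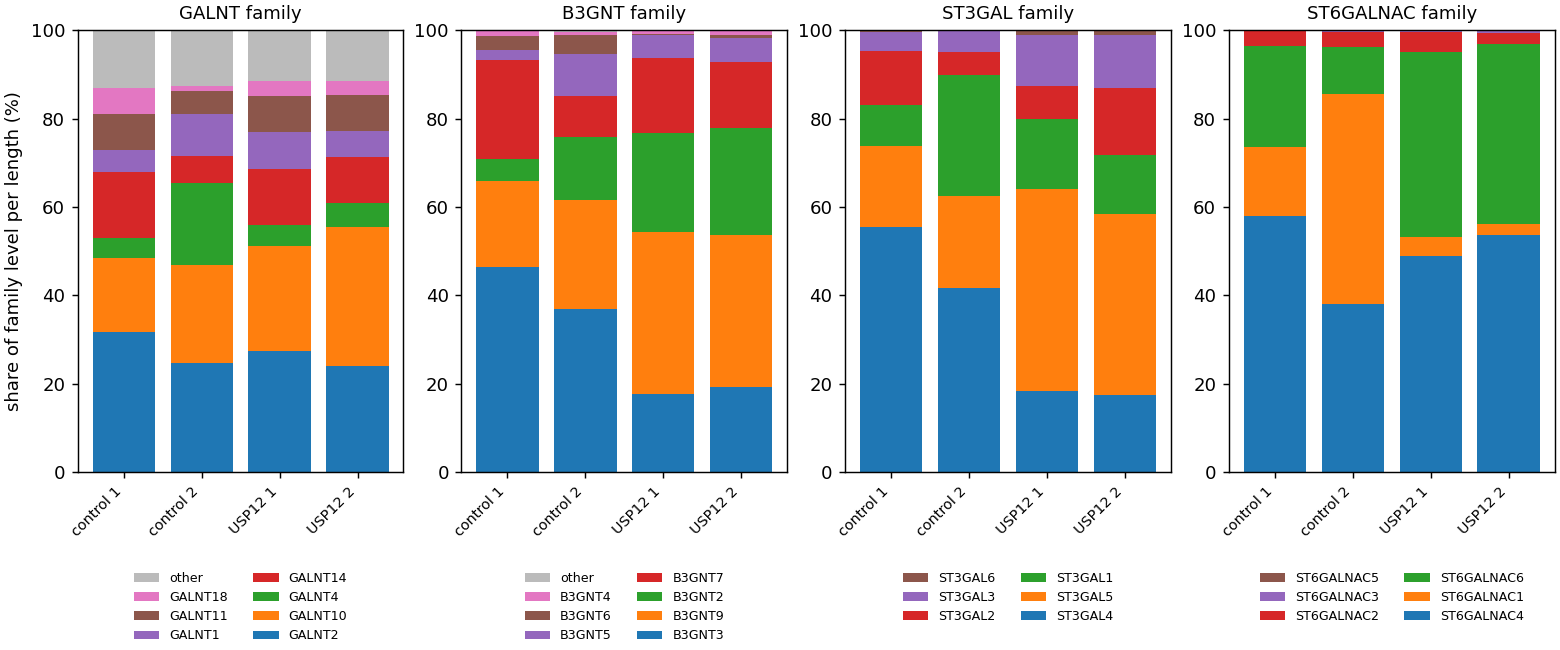
Share (%) of each member in the CPM per kb of its family, by library, with members beyond the leading 7 as other. The share of ST3GAL4 was 55.5% and 41.7% in control cells and 18.3% and 17.3% in USP12 cells.

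Ratios within a library do not depend on scaling between libraries. ST6GALNAC1 and C1GALT1 both act on the Tn antigen, and their ratio per kb was 16.3 and 7.40 in control cells and 0.663 and 0.235 in USP12 cells. ST6GALNAC1 thus stood above C1GALT1 in the control libraries and below it in the USP12 libraries. B3GNT6 over C1GALT1, core 3 over core 1 synthase, was 1.98 and 0.703 in control cells and 0.0792 and 0.0826 in USP12 cells. GCNT3 over C1GALT1 was 52.6 and 9.40 in control cells and 10.9 and 6.63 in USP12 cells, and here the groups overlapped.

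Sequence before a RefSeq start is shown for lower members of different steps, to let their composition be compared. The windows hold the 250 bases before the start that RefSeq's promoter table uses for a gene (GRCh38.p14) and were matched for 57 of the 80 members, among them B3GNT3, GCNT3, ST3GAL4 and ST6GALNAC4. For ST6GALNAC1, ST6GALNAC2, B3GNT6 and GALNT5 none was used. The RefSeq start is not the outermost GENCODE start of B3GNT3, ST3GAL4 and GCNT3, so their windows lie inside the gene spans given above, that of GCNT3 within the gene with 144 of its bases in annotated exons. Only the window of ST6GALNAC4 lies before the whole span. The stretches free of annotated exons are printed 5′ to 3′ on the gene's strand, with capitals for the GC box GGGCGG on either strand: B3GNT3 at chr19:17794888-17795135 (plus), ST6GALNAC4 at chr9:127917042-127917291 (minus) and GCNT3 at chr15:59611677-59611782 (plus).
B3GNT3: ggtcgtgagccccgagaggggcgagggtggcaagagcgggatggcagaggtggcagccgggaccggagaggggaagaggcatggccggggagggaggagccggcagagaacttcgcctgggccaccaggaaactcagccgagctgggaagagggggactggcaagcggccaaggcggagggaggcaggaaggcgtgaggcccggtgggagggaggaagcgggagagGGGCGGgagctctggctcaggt
ST6GALNAC4: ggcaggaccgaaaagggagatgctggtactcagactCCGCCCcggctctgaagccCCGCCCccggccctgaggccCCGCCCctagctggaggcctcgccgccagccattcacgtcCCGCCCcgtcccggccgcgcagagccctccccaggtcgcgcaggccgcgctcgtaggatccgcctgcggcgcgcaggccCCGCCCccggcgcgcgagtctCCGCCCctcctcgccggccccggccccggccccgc
GCNT3: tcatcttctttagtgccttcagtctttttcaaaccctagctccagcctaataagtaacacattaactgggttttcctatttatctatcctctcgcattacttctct
The whole window of ST6GALNAC4 was 79.2% G and C with 6 GC boxes, that of B3GNT3 70.4% with 1, and that of GCNT3 40.4% with 0. A GC box was in 3 of the 4 lower members matched (B3GNT3, ST3GAL4 and ST6GALNAC4), in 25 of 38 tested members that did not meet the criterion and in 42.3% of 27305 promoters. The E-box CACGTG was in ST3GAL4 and in 6.49% of promoters. In the ST3GAL4 window 199 of the 250 bases are in annotated exons, and the E-box lies among them. TGACGT (7.42% of promoters), TATAAA (11.1%), TGANTCA (6.6%), TGTTTAC (2.98%) and an NF-κB site (0.546%) were in 0 of the 4, on either strand.

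Other genes of the pathway were read from a list of 46, of which 37 were tested, with 30 lower and 7 higher point estimates and a median log2 fold change of -0.57. The criterion was met by 5 lower genes (13.5%, against 4.41% of all genes) and 0 higher genes (0%, against 2.92%), and 0 had an adjusted p under 0.05 in edgeR's quasi-likelihood test (0%; 6 had an unadjusted p under 0.05). Both USP12 libraries lay below both controls in 21 of 37 (56.8%, against 17.0%). This list too was chosen with earlier results of these data known.

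Of 18 sugar nucleotide genes 3 met the criterion. NANS, which makes the phosphorylated precursor of sialic acid, had 289 and 125 CPM in control cells against 52.3 and 50.8 CPM in USP12 cells (log2 fold change -2.01, SE 0.49, edgeR adjusted p = 0.316), with -2.46 (log2) against control replicate 1 alone and -1.28 against control replicate 2 alone. SLC35A3, a Golgi UDP-N-acetylglucosamine transporter, had 3.25 and 11.8 CPM (control) and 1.66 and 2.01 CPM (USP12) (log2 fold change -2.04). The fold change of SLC35A3 was -0.80 (log2) against control replicate 1 alone and -2.68 against control replicate 2 alone. GFPT1, which starts the hexosamine pathway, had control levels of 78.2 and 222 CPM and USP12 levels of 57.9 and 56.0 CPM, and its fold change was -0.43 (log2) against control replicate 1 alone and -1.96 against control replicate 2 alone. In all of these the groups were separate. CMAS, which activates sialic acid, had 31.5 and 38.6 CPM (control) and 47.7 and 41.4 CPM (USP12) and did not meet the criterion. NANP, which acts after NANS, had the highest fold change of this list (0.46) with overlapping groups.

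CHST2, a sulfotransferase of N-acetylglucosamine, met the criterion with 133 and 50 counts in control cells against 0 and 1 in USP12 cells. Its log2 fold change was -7.20 (SE 1.29, edgeR adjusted p = 0.210). The control to USP12 ratio of its pooled counts was 165.8, with an exact 95% counting interval of 29.4 to 6585. That interval leaves out the spread between libraries, and the control libraries lay at 10.1 and 2.77 CPM. CHST1, a galactose sulfotransferase, had 5 and 1 (control) and 20 and 16 (USP12) counts and did not meet the criterion. MGAT4A, an N-glycan branching enzyme, met it with 3.33 and 2.11 CPM in control cells against 0.504 and 0.623 CPM in USP12 cells (log2 fold change -2.25), and -2.51 (log2) against control replicate 1 alone and -1.88 against control replicate 2 alone. MGAT5B, another branching enzyme, had 61.5 and 41.8 CPM (control) and 95.02 and 104 CPM (USP12) (log2 fold change 0.94, 95% interval 0.01 to 1.88), separate between the groups but short of the criterion. Sialidases and fucosidases had log2 fold changes from -0.83 (NEU1) to 0.32 (NEU3), POFUT1 and POFUT2 had 0.09 and -0.52, and GALNTL6 had -0.82. None of these met the criterion.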

How the data were processed

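Messenger RNA was sequenced from 2 control and 2 USP12-overexpressed A549 libraries, made with a stranded kit. The authors trimmed adaptors and removed ribosomal reads with Seqtk, mapped reads to GRCh38 with HISAT2 2.0.4, and deposited raw counts per gene of uniquely mapped fragments from StringTie 1.3.0. The annotation release and the strand setting of the counting are not given in the sources used here. Members and lists were chosen with earlier results of these data known.

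Fold changes came from edgeR 4.0.16 in R 4.3.3 (filterByExpr, TMM, quasi-likelihood test, Benjamini-Hochberg over 15222 genes). The approximate standard error (SE) is the log2 fold change over the root of F. The looser criterion is the study's for lower genes, mirrored for higher ones. Alternatives were DESeq2 1.42.0 (Wald test and size factors), the exact test, other low-count filters, a replicate block and leaving out each library. Members given in full met the criterion, had an adjusted p under 0.05 with the block, were at or under 3 counts in 1 group and above in the other, or had the top level or extreme fold change of a step; C1GALT1 and C1GALT1C1 were always included. Other members were named after their values were seen. GCNT6, absent from the list of steps, was placed with core structures. Positions and transcript lengths came from GENCODE release 44. In it PIWIL4 overlaps FUT4, MFAP3 overlaps GALNT10 and ENSG00000257524 overlaps ST6GALNAC6 on the same strand, among others. The result of 1 marker gene is left out here.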

Additional observations from a re-analysis of the deposited data

How the results depend on the processing

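At an adjusted p under 0.05, edgeR's quasi-likelihood test gave 0 lower and 0 higher genes. The numbers were 361 and 167 with no low-count filter (members 7 and 1), 273 and 133 by DESeq2's Wald test (members 6 and 0), and 262 and 167 by the exact test (members 5 and 1). With 1 library left out they were 28 to 2612 lower and 12 to 2550 higher genes, and 0 to 13 lower and 0 to 5 higher members; by the criterion, 2 to 12 lower and 0 to 5 higher members. A lone library is there assumed to vary like the pair. By the criterion 2 members were higher with no filter and 2 by DESeq2. With at least 10 counts required in every sample 0 were higher, and GALNT16 (6 counts in control replicate 2) was then not tested. The shares of all genes by the criterion are not given for the alternative runs, so these counts are descriptive only.

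Same-numbered libraries share only a number (correlation of deviations 0.152). The replicate block gave 251 lower and 153 higher genes, 5 lower members and 1 higher, and 3 higher members by the criterion. As in the run with no filter, the spread there came from a trend over genes and not from each gene's own libraries. The block gave medians of 0.24 for initiation and -0.41 for sialylation, and 6.43 for USP12.

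USP12 was past the threshold at 6.33 with no filter, 6.31 by DESeq2 and 6.32 by the exact test (5.85 to 7.06 leaving out 1 library). With no filter, medians were -0.47 for chain extension, 0.0755 for core structures and -0.21 for fucosylation. Leaving out 1 library, medians were -0.311 to -0.0293 for all members, -0.67 to -0.15 for chain extension, -0.73 to 0.37 for core structures, -0.12 to 0.36 for fucosylation, -0.0653 to 0.24 for initiation, -0.25 to 0.15 for linker enzymes and -1.01 to -0.0565 for sialylation. The text names 34 tested members, some for their values, and the runs share libraries, so an unchanged direction is no independent support. Of these 34 members, 25 had the same direction in every alternative run. Leaving out 1 library reversed the other 9, namely B4GALT1 (-0.21 to 0.0689), C1GALT1 (-0.73 to 0.62, and 0.18 without USP12 replicate 1), FUT8 (-0.12 to 0.444), B3GALT6 (-0.00395 to 0.409), GALNT4 (-1.97 to 0.224), B4GALT5 (-0.0797 to 0.235, and -0.0123 without USP12 replicate 2), ST6GALNAC6 (-1.70 to 0.797), ST6GAL1 (-0.383 to 0.0888) and ST8SIA1 (-4.23 to 6.13, the latter against 0 control counts and so no measure of size). Of 14 other pathway genes it reversed NANP (-0.276 to 2.13), NEU3 (-0.0597 to 0.876) and GALNTL6 (-1.41 to 0.256). The cause was not tested.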
